A study of Homo sapiens with 4 samples.

Results

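Axon guidance genes encode the ligands and receptors that steer growing nerve fibres and migrating cells. The set described here comprised 69 protein-coding genes of 10 families, chosen by their symbols: the class 3 to 7 semaphorins, plexins, neuropilins, ephrins, Eph receptors, Slits, Robos, netrins, DCC and the UNC5 receptors. They were 69 of the 19974 protein-coding genes that RefSeq places on the autosomes or the X chromosome. Binding of TBX3, a T-box transcription factor, was mapped by chromatin immunoprecipitation and sequencing (ChIP-seq) in 501mel, an established human melanoma cell line. The tagged protein, TBX3-3xHA, was precipitated through its HA peptide in 2 ChIP samples, replicates 1 and 2. Another 2 samples from the same line were input chromatin, and they were not analysed here. All groups shared this line, untreated as far as the labels say, and the labels do not state how the tagged protein was expressed or whether the replicates came from separate cultures.

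Class 3 semaphorins are secreted and bind neuropilins, which pass the signal on through plexins, whereas most other semaphorins bind plexins directly. Ephrins are membrane-bound ligands of the Eph receptor tyrosine kinases, Slits are secreted ligands of Robos, and netrins attract through DCC and repel through UNC5 receptors. Melanocytes descend from the neural crest, a migrating embryonic cell population that several of these cues guide. T-box proteins recognise a short half-site with the core GGTGTGA.

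The deposited lists held 32479 peaks in replicate 1 and 40494 in replicate 2, each given as a summit of 1 base in hg38 with a score, a nearest gene and its distance from the closest transcription start site (TSS). A shared region was a pair of mutually nearest summits of the 2 lists within 200 bp, and there were 22702. The scores are the authors' own and their scale is not stated, so they were ranked only within a list; a percentile of 100 marks the highest score. Read depth is unknown. With 1 ChIP condition there was no test between conditions, and gene counts are read against the share of all protein-coding genes that met the same rule. All intervals are 95% Wilson intervals, which reflect the number of items counted and no other error.

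Shared regions lay within 10 kb of a TSS at 15 of the 69 axon guidance genes (21.7%, interval 13.6% to 32.8%), against 10.1% of all protein-coding genes. At any distance, 38 were the nearest gene of at least 1 shared region (55.1%, 43.4% to 66.2%), against 28.6% of all protein-coding genes. Both sides of the pathway were represented, with 9 of 35 ligand genes and 6 of 34 receptor genes within 10 kb, and 19 of each at any distance. At a limit of 1 kb the count was 8 genes, against 2.99% of protein-coding genes, and at 50 kb it was 26 genes, against 22.9%. With a single list the count within 10 kb was 18 in replicate 1 (13.4% of all protein-coding genes) and 17 in replicate 2 (15.5%).

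**Figure D1:**
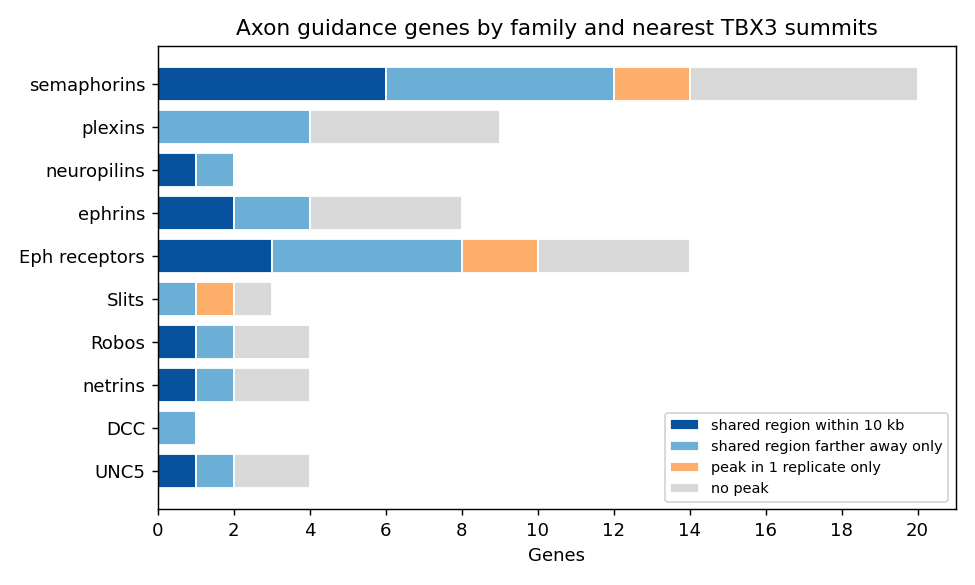
Number of genes (x axis) in each of the 10 families, divided into those whose nearest shared region is within 10 kb of a TSS, those with one farther away only, with a peak in 1 replicate only, and with no peak. Of the 20 semaphorins 6 lay in the first class, and none of the 9 plexins did, beside 10.1% of all protein-coding genes.

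Axon guidance genes are long, and long genes had shared regions more often. The median gene span was 55.2 kb in the set and 24.2 kb over all protein-coding genes. Within the set it was 201.0 kb for genes with a shared region at any distance and 17.7 kb for those without. Among genes spanning under 50 kb, 6 of 31 in the set had a shared region at any distance (19.4%), and 19.8% of all protein-coding genes of that length did. Among those of 50 to 200 kb the share was 13 of 17 (76.5%, 52.7% to 90.4%) against 43.2%, and among those of 200 kb or more it was 19 of 21 (90.5%, 71.1% to 97.3%) against 65%. Within 10 kb of a TSS the shares in order of length were 16.1%, 17.6% and 33.3% in the set, and 7.74%, 14.7% and 17.8% over all protein-coding genes. In each of the 3 length classes the interval of the set, 7.09% to 32.6%, 6.19% to 41% and 17.2% to 54.6% in order, included the share of all protein-coding genes. The part of gene length in the counts was not tested beyond these classes.

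**Figure D2:**
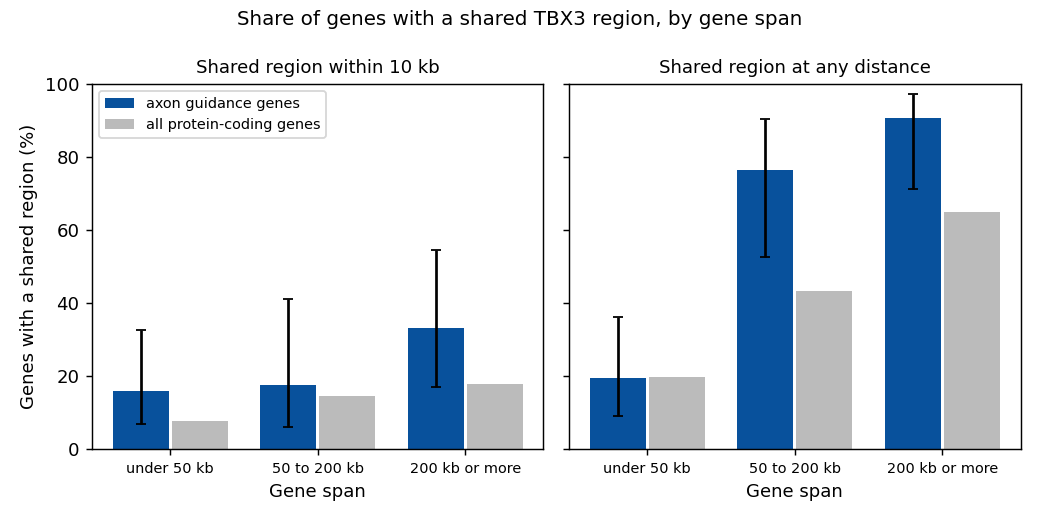
Percentage of genes with a shared region (y axis) by gene span (x axis), within 10 kb of a TSS on the left and at any distance on the right. Blue bars are axon guidance genes with 95% Wilson intervals and grey bars are all protein-coding genes; at any distance the bars are level under 50 kb (19.4% and 19.8%) and apart above it.

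Among the ligands, sites within 10 kb were found at 6 of 20 semaphorins: SEMA3A, SEMA3C, SEMA4A, SEMA5B, SEMA6B and SEMA6D. SEMA6D encodes a transmembrane semaphorin. Its region (chromosome 15, 47717313 and 47717320) was 54 bp upstream of the TSS of one transcript, with scores of 41.6 in replicate 1 and 52.5 in replicate 2 (percentiles 82 and 82.6). The following stretch holds both summits and ends at that TSS. It is taken from RefSeq promoter sequence of GRCh38.p14, read on the plus strand, and capitals mark the bases from 10 before the first summit to 10 after the second.
SEMA6D, chr15:47717255-47717366: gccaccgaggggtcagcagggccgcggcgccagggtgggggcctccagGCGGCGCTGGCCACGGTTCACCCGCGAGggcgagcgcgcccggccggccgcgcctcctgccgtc

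The region of SEMA4A lay 8354 bp upstream of its TSS (chromosome 1, summits 156141590 and 156141572), with scores of 34.5 and 65.5. SEMA3C, a secreted ligand, had its own (chromosome 7, 80919064 and 80919083) in exon 1 of 19 in the 5′ untranslated region of a transcript and 287 bp from its TSS (scores 30.7 and 71). SEMA3A, the secreted ligand known for collapsing growth cones, had a weak region 200 bp upstream of its TSS, with scores of 5.12 and 10.1 (percentiles 14.7 and 39.4). Its strongest region was in intron 6 of 16, 151032 bp from the TSS (chromosome 7, 84043869 and 84043883, scores 114.1 and 185.5). At SEMA3A the site with the higher score in both lists was therefore the distant one.

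SEMA4D, a transmembrane ligand of plexin-B receptors, had the strongest of the 185 regions credited to the set by nearest TSS, by the sum of its score ranks. Each list held 1 peak for this gene. The site (chromosome 9, 89448619 and 89448628) was 31077 bp from the TSS and fell in intron 2 of 17. The scores were 257.2 and 367.1, which placed it at percentiles 99 and 99.1.

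The ephrins had 2 of 8 genes within 10 kb, both in a group of neighbouring ephrin-A genes on chromosome 1. EFNA3 had summits at 155085508 and 155085510, in intron 2 of 4 and 6636 bp from the TSS (scores 39.9 and 55.2). EFNA1 had summits at 155127275 and 155127384, in its promoter 598 bp upstream of the TSS (scores 13.5 and 12.9). EFNA5, a ligand of several EphA receptors, had no region within 10 kb but 9 at larger distances, the strongest in intron 1 of 4 at 150717 bp from the TSS (chromosome 5, 107520178 and 107520189, scores 31 and 83.7). The EFNA5 region 205140 bp upstream of the TSS fell in an intron of another gene, FBXL17. Of the netrins, NTN1 had a region 4221 bp upstream of a TSS (chromosome 17, 9017321 and 9017326, scores 8.85 and 13.8), within an L2 repeat. A stronger region in intron 3 of 6 of NTN1 (9169449 and 9169437, scores 32.5 and 49.1) was credited to LOC101928266 by nearest TSS. NTN4 had a region in intron 2 of 9, 50191 bp from its TSS, with scores of 55.9 and 99.9, above both NTN1 regions. SLIT2 was the only Slit credited with shared regions, 5 in all, none nearer than 33276 bp.

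Among the receptors, none of the 9 plexins had a shared region within 10 kb. The Wilson interval reaches 29.9% and includes the 10.1% of all protein-coding genes. The plexins held some of the strongest distant sites. PLXNC1, the receptor of SEMA7A, had 4 shared regions. The strongest was in intron 9 of 30 (chromosome 12, 94230659 and 94230625), with scores of 282.0 and 330.1, and the next lay in intron 1, 15819 bp from the TSS (94164542 and 94164547), with scores of 184.6 and 297.8. The lowest of their 4 percentiles was 97.9. PLXNC1 also had a replicate 1 peak 5701 bp from a TSS, without a partner in replicate 2. PLXNA2 had 8 shared regions and PLXNA4 had 5, with the strongest PLXNA4 region in an intron 138711 bp from the nearest TSS (scores 85.6 and 129.6).

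The 2 neuropilins, coreceptors of class 3 semaphorins, differed. NRP2 had 9 shared regions, 2 of them within 10 kb. Those 411597 and 315684 bp upstream of its TSS fell in introns of another gene, PARD3B. The strongest NRP2 region lay in intron 2 of 16, 16516 bp from the TSS (chromosome 2, 205699016 and 205698990), with scores of 213.2 and 251.6. The next was 6548 bp from the TSS in intron 1 (205689048 and 205689029, scores 73 and 137.5), and another fell 271 bp from the TSS in exon 1 of 17 in the 5′ untranslated region (scores 21.7 and 55). Within its span NRP2 had 4.32 shared regions per 100 kb. NRP1 had 1 shared region, 170536 bp from its TSS (scores 14.1 and 41.9), and none within its span.

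The Eph receptors had 3 of 14 genes within 10 kb: EPHA3, EPHA5 and EPHA8. EPHA5, a receptor of ephrin-A ligands in the nervous system, had 3 shared regions there. Only 2 of the 69 genes of the set, EPHA5 and NRP2, had at least 2 such regions, beside 1.74% of all protein-coding genes. The strongest EPHA5 region lay in intron 1 of 16, 1139 bp from the TSS (chromosome 4, 65668349 and 65668340), with scores of 201.0 and 253.4 and percentiles of 98.3 and 98. It had the lowest rank sum of any region of the set within 10 kb. A second had summits at the promoter, 65670499 and 65670511, the first of them 4 bp upstream of the TSS, with scores of 26.1 and 34.2. The third was 7882 bp into the gene (scores 15.8 and 21.1). The EPHA5 promoter is printed below from RefSeq (GRCh38.p14, minus strand, written 5′ to 3′ and ending next to the TSS of the deposited annotation), with capitals marking the summits and up to 10 bases on each side.
EPHA5, chr4:65670496-65670739: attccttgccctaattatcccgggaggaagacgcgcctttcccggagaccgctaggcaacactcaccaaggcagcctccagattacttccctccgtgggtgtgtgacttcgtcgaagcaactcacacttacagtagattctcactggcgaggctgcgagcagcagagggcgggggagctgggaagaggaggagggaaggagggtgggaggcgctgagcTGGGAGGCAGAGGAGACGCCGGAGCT

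Neither printed promoter holds the core GGTGTGA or its reverse complement TCACACC. The shorter GTGTGA stands in the EPHA5 promoter, beginning 150 bases before the RefSeq start, and its reverse complement TCACAC begins 129 bases before it; this shorter core was chosen after the sequences had been seen. Promoter entries of 300 bases, from 250 before to 50 after a start, were at hand for 59 genes of the set, 91 entries in all. GGTGTGA on either strand occurred in 1 of the 91 (1.1%, interval 0.194% to 5.96%), an entry of SEMA3D, against 3.45% of all 35116 entries. AGGTGT, which overlaps it, occurred in 2 (2.2%, 0.605% to 7.66%) against 11.4% of all entries. GTGTGA occurred in 10 (11%, 6.08% to 19.1%) against 12%. The share of all entries lay within the interval for GGTGTGA and GTGTGA and above it for AGGTGT. Some genes have more than 1 entry, which the intervals do not allow for. From the middle of the upstream part of the entry to the start, the shares were 0% against 1.31% for GGTGTGA, 1.1% against 4.44% for AGGTGT and 4.4% against 4.9% for GTGTGA. A match describes these letters only.

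EPHA8 had a region 5727 bp upstream of its TSS (chromosome 1, 22557775 and 22557662, scores 34.9 and 94.2), in a DNA transposon. EPHA4, which binds ephrins of both the A and B classes, had 11 shared regions and none within 10 kb. The strongest EPHA4 region was intergenic, 371682 bp from the TSS (chromosome 2, 221200676 and 221200681, scores 125.4 and 255.0), and only 1 of the 11 lay inside the gene.

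Among the Robos, ROBO1 had 12 shared regions, all inside its span of 1170.8 kb. The strongest ROBO1 region (chromosome 3, 79081549 and 79081512, scores 147.1 and 298.9) was 62090 bp upstream of the nearest TSS and in intron 3 of 30 of another transcript. One in intron 2 of 28 was close in rank (78895008 and 78894958, scores 138.3 and 316.2). The only one within 10 kb of a TSS lay 5027 bp from it in an Alu repeat (79014432 and 79014465, scores 28 and 52.3). ROBO2 had 5, none within 10 kb. Counted over the whole span of each gene, ROBO1 held 1.11 and ROBO2 0.918 shared regions per 100 kb.

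The netrin receptors fell apart by gene. UNC5D had a region 598 bp from a TSS, in intron 1 of 16 of one transcript (chromosome 8, 35544990 and 35544981), with scores of 81.7 and 215.6. UNC5C, a repulsive netrin receptor, had 9 shared regions, the strongest 91437 bp upstream of the TSS within an L2 repeat (chromosome 4, 95640647 and 95640588, scores 108.5 and 198.1), and the nearest at 23495 bp. DCC had 1 shared region in 1195.7 kb of span, with low scores of 5.76 and 12.2.

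**Figure D3:**
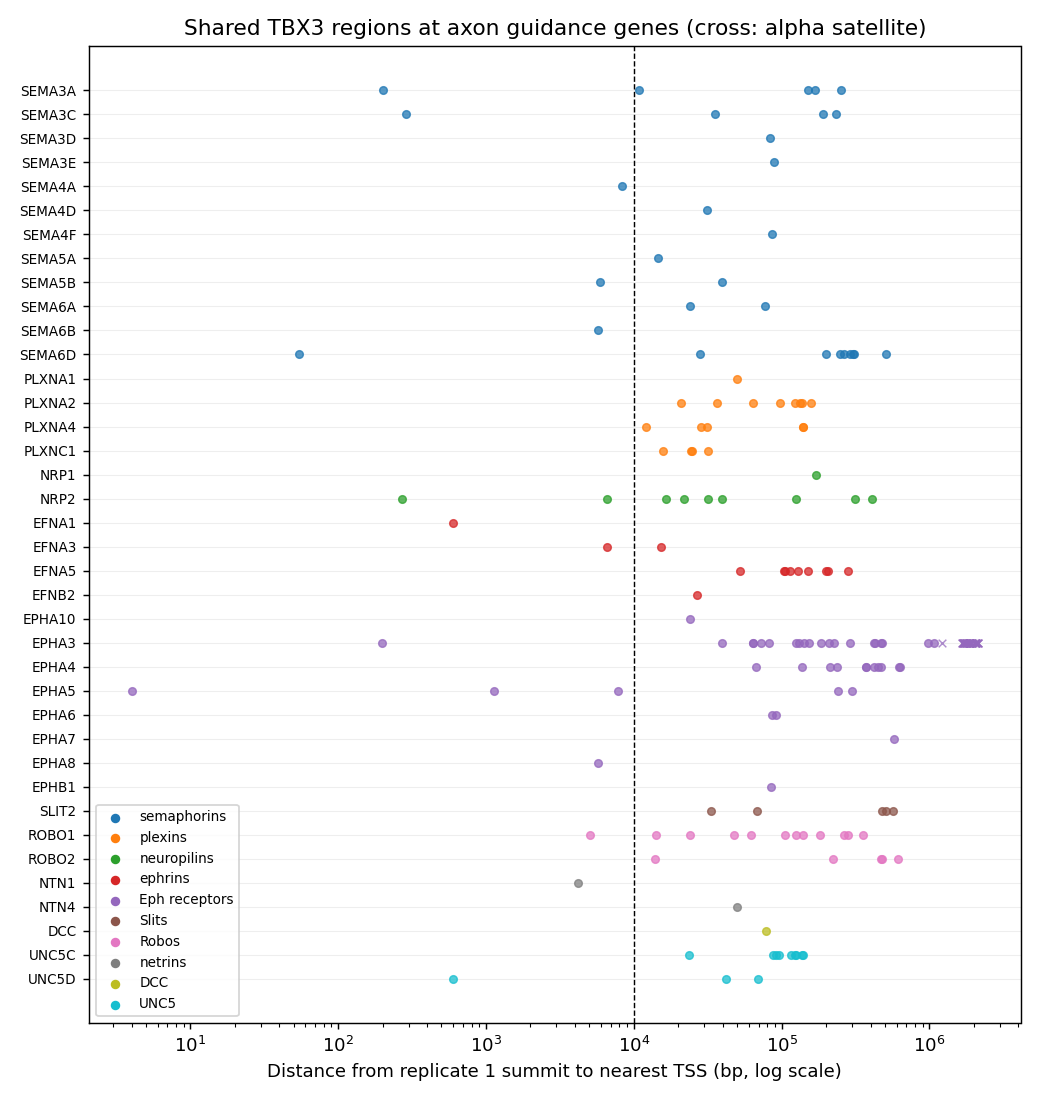
Distance from the replicate 1 summit of each shared region to the nearest TSS (x axis, bp, log scale) for the 38 genes with a shared region (y axis), coloured by family; the dashed line marks 10 kb and crosses are regions in alpha satellite. EPHA5 has 3 points left of the line, plexins have none, and the crosses all belong to EPHA3.

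Close to the limit of 10 kb, the genes just inside it by their nearest shared region were SEMA4A (8354 bp), EFNA3 (6636 bp) and SEMA5B (5872 bp). Those just outside were PLXNA4 (12057 bp), ROBO2 (13815 bp) and SEMA5A (14552 bp). Peaks in a single list occurred at 5 genes without a shared region. SEMA7A, the membrane-anchored ligand of PLXNC1, had a replicate 1 peak 88 bp from its TSS with a score of 21.5 (percentile 66.7), and the nearest replicate 2 summit was 56097 bp away. The others were SEMA4B in replicate 1 and EPHA2, EPHB4 and SLIT3 in replicate 2. The remaining 26 genes were the nearest gene of no peak in either list: SEMA3B, SEMA3F, SEMA3G, SEMA4C, SEMA4G, SEMA6C, PLXNA3, PLXNB1, PLXNB2, PLXNB3, PLXND1, EFNA2, EFNA4, EFNB1, EFNB3, EPHA1, EPHB2, EPHB3, EPHB6, SLIT1, ROBO3, ROBO4, NTN3, NTN5, UNC5A and UNC5B. Over all protein-coding genes 41.6% had a peak of either list at any distance, and 43 of the 69 did in this set.

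The set was the nearest gene of 185 shared regions, and 56 of these belonged to EPHA3, a receptor of ephrin-A5. In EPHA3, 36 of the 56 regions (64.3%) were in alpha satellite, the tandem repeat of centromeres, and lay 1217270 to 2138528 bp from the TSS towards the centromere of chromosome 3. No other gene of the set had a region in a satellite. The satellite regions had median percentiles of 58.9 in replicate 1 and 45.8 in replicate 2, and the other 20 EPHA3 regions had 55.3 and 75.4. The strongest EPHA3 region was in an intron 72245 bp from the TSS (89179769 and 89179766, scores 135.4 and 338.9). Its single region within 10 kb, in exon 1 of 17, had scores of 3.74 and 10.3 (percentiles 5.34 and 39.6) and summits 146 bp apart, so that it counts as shared at 200 bp and not at 50 bp. The same holds for the single near regions of EFNA1 (summits 109 bp apart) and EPHA8 (113 bp). With pairing at 50 bp, 12 genes of the set had a shared region within 10 kb. The share of all protein-coding genes was not counted at this pairing distance, so the 12 have no comparison.

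Outside satellites 149 shared regions remained. At least 5 shared regions were credited to 13 of the 69 genes, against 2.69% of all protein-coding genes, and at least 9 outside satellites to 7 genes, against 0.536%. The 7 were EPHA3, ROBO1, EPHA4, NRP2, SEMA6D, EFNA5 and UNC5C. They are the genes of the set with the most shared regions, and 9 is the lowest count among them. The limit of 9 was thus taken from these values, which enlarges the contrast with all protein-coding genes. Neither count was divided by gene length. Introns held 58.4% of the 149 regions (50.4% to 66%), against 47.6% of all shared regions outside satellites, and 36.9% against 44.4% were intergenic. They lay far from start sites, at a median of 105573 bp against 37087.5 bp. A repeat was named at fewer of them, since 83.9% (77.2% to 88.9%) against 69.9% had none. LTR elements held 5.37% against 12.7%. Of the 149, 61.1% were inside the span of the gene they were credited to. A few genes supplied many of the 149 regions, among them EPHA3 with 20, ROBO1 with 12 and EPHA4 with 11. The intervals do not allow for this clustering. The shares and distances were not compared at equal gene length, and the part of length in them was not tested.

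In strength the regions of the set were like the others. Outside satellites their median score percentile was 62.1 in replicate 1 and 74.4 in replicate 2, against 63.6 and 72.2 for all shared regions outside satellites. The highest score decile of both lists held 20 of them (13.4%, 8.86% to 19.8%), against 13.6%. A partner in the other list was found for 75.3% of the peaks of the set outside satellites in replicate 1 (68.8% to 80.7%) and 57.3% in replicate 2 (51.2% to 63.2%), against 68.9% and 54.4% of all such peaks. Across the 149 regions the scores of both lists had a Spearman rank correlation of 0.861, beside 0.863 for all; regions share 1 pair of libraries, so this is a description.

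**Figure D4:**
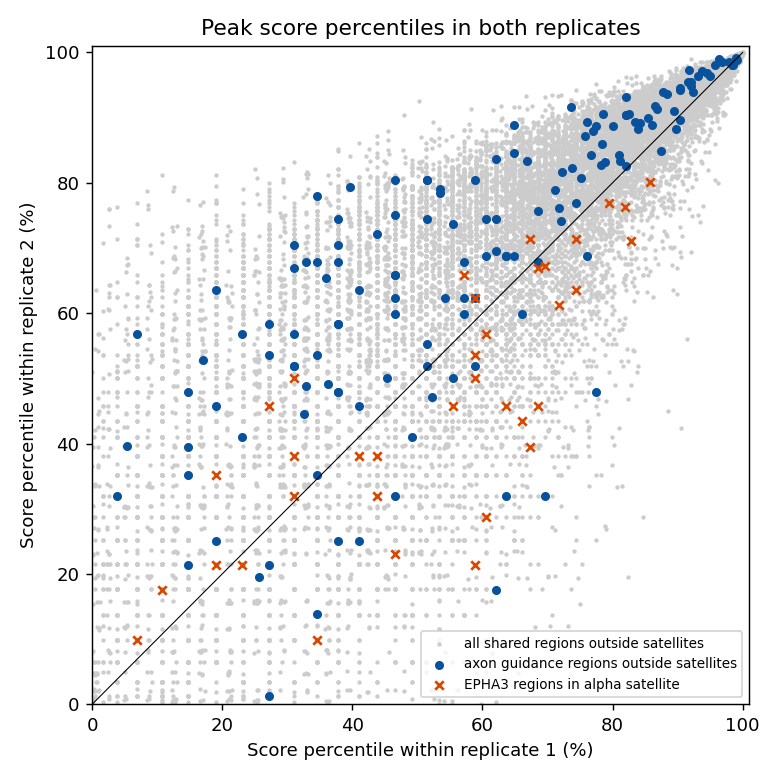
Score percentile within replicate 1 (x axis) against replicate 2 (y axis) for shared regions, with all regions outside satellites in grey, axon guidance regions outside satellites in blue and EPHA3 satellite regions as crosses. The blue points spread over the grey cloud, and the crosses lie mostly under the line of equality, with medians of 58.9 and 45.8.

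The nearest-TSS annotation credits a site to whatever transcript starts closest, including antisense and microRNA genes inside a longer gene. The spans of the 69 genes were therefore searched directly. A shared region lay inside the span of 32 genes, against 20.9% of all protein-coding genes. The median span was 55.2 kb in the set and 24.2 kb over all protein-coding genes. Counts over spans were not divided by gene length, and the part of length in them was not tested. The spans held 185 shared regions, the same number as was credited by nearest TSS though not the same regions, and 94 of them had been credited to another gene. EPHB2, SLIT1 and SLIT3 had shared regions in their spans but none credited to them. Counting either way, 41 of the 69 genes were reached, against 33.3% of all protein-coding genes, and 28 were not.

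SEMA5A, a transmembrane semaphorin with thrombospondin repeats, was singled out after these values had been seen. Its span of 511.0 kb on chromosome 5 held 53 shared regions, the highest number of any of the 19974 protein-coding genes, and the next highest number was 25, at TRIO. Only 1 of the 53 was credited to SEMA5A, whereas 28 were credited to SEMA5A-AS1 and 24 to MIR4636. At 10.4 shared regions per 100 kb it was the densest of the 1396 protein-coding genes spanning 200 kb or more, whose median was 0.489 with an upper quartile of 1.1. In the single lists its span held 93 peaks in replicate 1 and 126 in replicate 2. With SEMA5A left out, the spans of the set held 0.942 shared regions per 100 kb, beside 1.27 with it and 0.735 over all protein-coding genes.

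The strongest SEMA5A region had summits at 9157230 and 9157239 in intron 11 of 22, with scores of 263.6 and 350.1 and a percentile of 99 in each list. Others were in intron 3 (9356622 and 9356603, scores 160.5 and 295.2), intron 5 (9245356 and 9245340, 141.3 and 256.6) and intron 1 (9454197 and 9454219, 160.5 and 215.8). One lay in exon 2 of 23, in the 5′ untranslated region (9437822 and 9437843, scores 139.8 and 225.3). Of the 53 regions, 51 were in introns and 7 were in the top decile of both lists. Most were weaker, with median percentiles of 49.1 and 54.6, below the 63.6 and 70.5 of all shared regions. A partner in the other list was found for 57% of the replicate 1 peaks in the span (46.8% to 66.6%) and 42.1% of the replicate 2 peaks (33.8% to 50.8%), below the 69.9% and 56.1% of all peaks.

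The stretches of equal length on either side of SEMA5A held 17 and 11 shared regions. The first 20 Mb of chromosome 5 as a whole held 15.8 shared regions per Mb outside satellites, against 5.26 per Mb on the rest of the chromosome. SEMA5A and TRIO both lie in this stretch, and its part in the SEMA5A count was not tested.

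**Figure D5:**
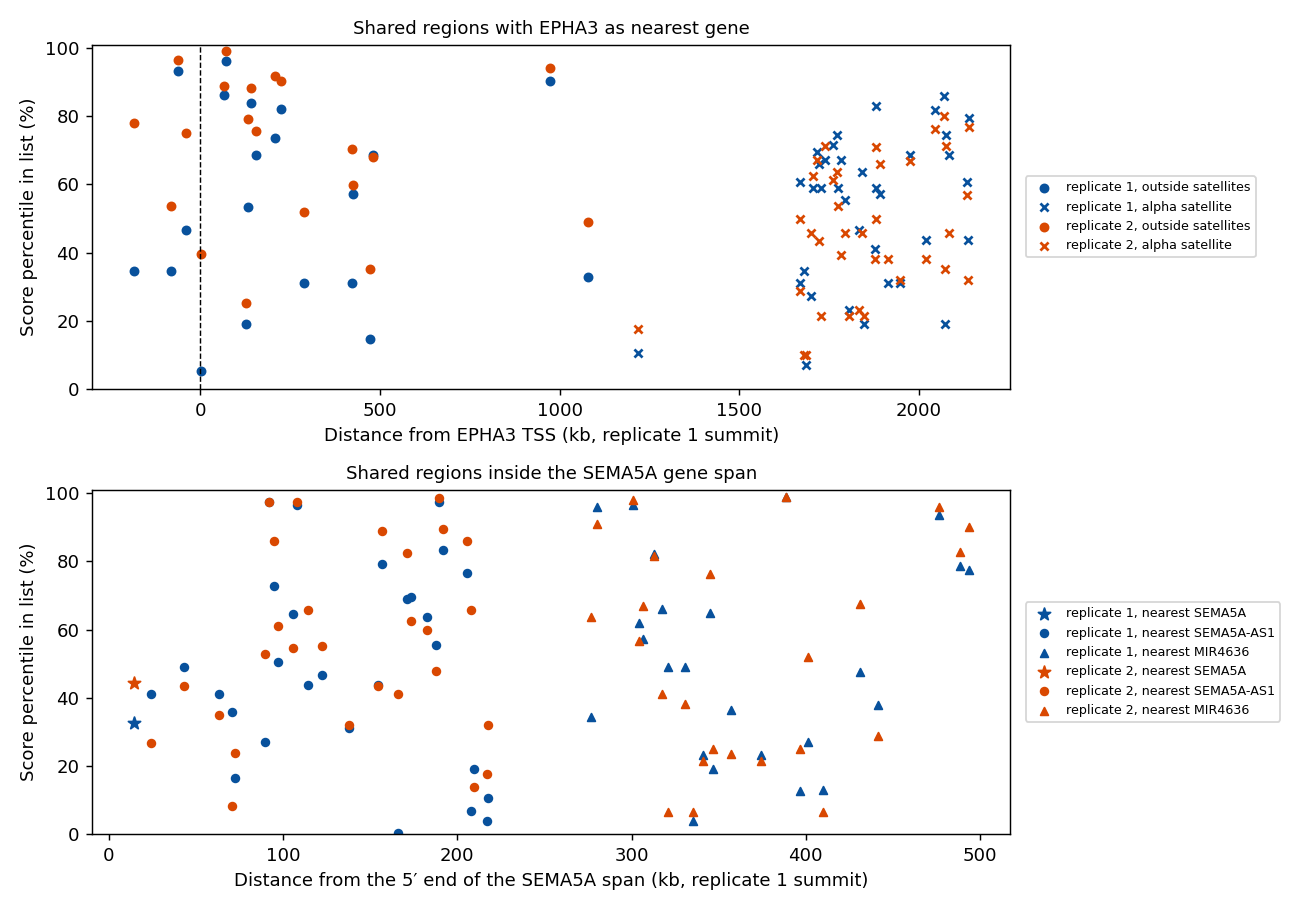
Score percentile in each list (y axis) of the shared regions credited to EPHA3 by distance from its TSS (upper panel, kb) and of those inside the SEMA5A span by distance from its 5′ end (lower panel, kb), with replicate 1 in blue and replicate 2 in orange. The 36 EPHA3 crosses are alpha satellite, none nearer than 1217270 bp to the TSS; the 53 SEMA5A regions run along the gene, with 1 nearest to SEMA5A itself.

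SLIT3 had no shared region by nearest TSS and 12 inside its span of 639.4 kb, of which 6 were credited to LOC728095, 3 to MIR218-2 and 3 to MIR585. The strongest SLIT3 region was in intron 10 of 35 (chromosome 5, 168794555 and 168794565, scores 119.7 and 157.8), 26300 bp from MIR218-2. For each of the 3 microRNA genes to which sites in SEMA5A and SLIT3 were assigned, 1 mature microRNA is given below as RefSeq lists it (GRCh38.p14); the annotation names the gene and no arm, and the other arms of MIR218-2 and MIR585 are not shown. Capitals mark the seed, bases 2 to 8. All 3 shown have different seeds, and miR-218, which is encoded within Slit genes, is known to act on ROBO1.
hsa-miR-218-5p: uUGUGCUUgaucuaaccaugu
hsa-miR-585-3p: uGGGCGUAucuguaugcua
hsa-miR-4636: aACUCGUGuucaaagccuuuag

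ROBO2 had 16 shared regions in its span, 11 of them credited to ZNF717. The deposited annotation labels all 11 as intergenic, so they lie in ROBO2 only by the RefSeq span used here. The same holds for the regions credited to ROBO2 with replicate 1 summits at 76566187, 76561849 and 76425818, which are also labelled intergenic. In UNC5C 3 of 7 were credited to BMPR1B.

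In SEMA3C 5 of 7 were credited to CD36, and they included the strongest region in any span of the set. It was in intron 17 of 17 (chromosome 7, 80748641 and 80748648), 101988 bp from the nearest CD36 TSS, with scores of 514.2 in replicate 1 and 673.3 in replicate 2 and a percentile of 99.9 in each list. The next in SEMA3C was in intron 13 of 17 (80763369 and 80763396, scores 148.6 and 273.4). Both were above the SEMA3C region near the TSS in each list. In UNC5D the strongest region of the span was in exon 7 of 17 and credited to LOC101929550 (chromosome 8, 35686583 and 35686599, scores 216.4 and 412.3). At least 10 shared regions in the span were found at 5 genes of the set, SEMA5A, ROBO2, ROBO1, SLIT3 and EPHA3, against 0.481% of protein-coding genes. This count, too, was not divided by gene length.

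Another 56 genes of the pathway, comprising other ligands, coreceptors, adhesion molecules and cytoplasmic effectors, were counted by the same rule. Of these, 15 had one within 10 kb (26.8%, 17% to 39.6%), against the same 10.1% of protein-coding genes, and 35 had one at any distance (62.5%, 49.4% to 74%) against 28.6%. The 56 genes were not divided by gene length, and the part of length in these shares was not tested. MICAL2, an actin-oxidising enzyme whose relatives act downstream of plexins, had the strongest, 9590 bp upstream of a TSS (chromosome 11, 12100986 and 12100987), with scores of 563.4 and 669.4. ABLIM1, an actin-binding LIM protein, had 4 within 10 kb, the strongest 26 bp from a TSS (scores 121.4 and 209.0). FYN, a tyrosine kinase used by several guidance receptors, had 5, the strongest 8994 bp upstream of a TSS with scores of 47.4 and 113.8. CHL1, a cell adhesion molecule, had 1 at 7307 bp upstream (scores 90.9 and 171.5), and TRIO had 1 at 6156 bp (scores 31.2 and 54.9).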

How the data were processed

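Peak summits of the 2 ChIP samples were annotated against hg38 with annotatePeaks.pl of HOMER, per the file headers. The submitters' processing notes name Bowtie2 2.3.5 and MACS2 2.1.2, without their settings. A peak score stands in the deposited lists, and its scale, threshold and control are not given in the sources used here. Each list came from 1 sample. Distances are those the authors deposited, and the nearest gene and distance of a shared region are those of replicate 1. Summit positions were set against gene spans of RefSeq GRCh38.p14; all 43 genes of the set with a peak matched by identifier. Groups and replicate numbers came from the sample titles.

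Mutually nearest summits within 200 bp were paired (Python 3.11.15, pandas 2.3.3), and the pairing was tested on simulated data. The simulated summits were widely spaced, so the test did not cover dense clusters where several summits compete for a partner. The members and lists were chosen with earlier results of these data known. Motifs were counted in promoter sequences of 300 bases, because windows around summits were not analysed here. The text gives values for the 2 strongest genes within 10 kb in each family, the 8 strongest at any distance by nearest TSS, the 6 with the most regions and ties, 3 genes on each side of 10 kb, genes without peaks by name, and the 5 strongest other pathway genes; further genes were chosen after their values were seen. Alternatives covered pairing distance, score limits, satellites, single lists, distance to the TSS and motif length.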

Additional observations from a re-analysis of the deposited data

How the results depend on the processing

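Of 66 alternatives over 12 results, 44 stayed within the limits set, a factor of 1.5 for counts. The count of axon guidance genes within 10 kb moved to 0 with summits at the same base, 3 among the 5000 highest scores of each list, 8 within 1 kb and 26 within 50 kb of a TSS. At any distance it moved to 1 at the same base and 17 among the 5000 highest scores. For other pairing distances and for the score limits, the share of all protein-coding genes was not counted. Whether the set differs from all genes under those rules is therefore not known. The 185 regions became 1 at the same base, 104 for scores at or above the median, 29 among the 5000 highest, and 318 without replicate 1. Without replicate 2 there were 250, which stayed within the limit. The score limits, pairing distances and single lists changed which peaks or pairs were kept. The limits of 1 kb and 50 kb changed only the distance allowed. Within 50 bp the share of peaks with a partner fell to 50.4% and 39.6%, and the median percentile in replicate 2 was 73.2; outside satellites that median was 74.4 and the intron share 58.4%. The promoter core moved to 0% between the middle of the upstream part of the entry and the start, and to 11% for GTGTGA, an alternative added after seeing the data. Added likewise, the SEMA5A count was 1 at the same base, 22 for scores at or above the median, 7 among the 5000 highest and 93 to 126 in single lists; no protein-coding gene exceeded it in these settings, and others tied with it at the same base and among the 5000 highest. No paired analysis was possible because the input samples were not analysed here and no result came from a test.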

Other observations

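Neighbouring class 3 semaphorin genes on chromosome 7 differed in their sites. By nearest TSS, SEMA3A was credited with 5 shared regions and SEMA3C with 4, whereas SEMA3D and SEMA3E had 1 each. Inside the gene spans the order differed, with 7 in SEMA3C, 5 in SEMA3A, 1 in SEMA3D and 0 in SEMA3E. The SEMA3D region was strong, in intron 9 of 16 at 83358 bp from its TSS, with scores of 100.3 in replicate 1 and 209.2 in replicate 2 (percentiles 93.7 and 97.1). Of the 4 regions credited to SEMA3C, the 2 strongest were intergenic, 189560 and 233477 bp upstream of its TSS, with scores of 80.4 and 159.3 for the nearer and 67.7 and 97.2 for the farther. Both scored below the intron 17 region of SEMA3C, at 514.2 and 673.3, which was credited to CD36.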
